A study of Vitis vinifera with 6 samples.

Results

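MYB14 (VIT_207s0005g03340) and MYB15 (VIT_205s0049g01020) are the R2R3-MYB transcription factors known in grapevine as regulators of the stilbene synthase (STS) genes. They were taken by identifier and not by a threshold on a measured value, although earlier results of these data were known, as 2 of the 31843 genes in the count table, whose identifiers place them on chromosomes 7 and 5. Their transcripts were compared between embryogenic callus (EC), a proliferating mass of dedifferentiated cells, and young leaves of *Vitis vinifera* cv. 'Chardonnay', with 3 ribosome-depleted total RNA libraries per tissue. No gene was altered in either tissue, and no treatment other than the tissue culture of EC was applied. The paper describes embryogenic callus in general as obtained with phytohormones. EC was raised from anthers of vineyard vines, kept in the dark on solid medium and harvested 4 months after callus had formed, each sample pooling cultures from 3 Petri dishes. Each leaf sample pooled 5 leaves under 30 mm across from the same vines. Light, temperature, organ of origin and culture medium with any phytohormones therefore differ together with tissue and cannot be told apart.

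R2R3-MYB proteins carry a pair of MYB repeats that bind DNA, and members of the family control most branches of phenylpropanoid metabolism in plants. Stilbenes such as resveratrol are grapevine defence compounds. STS makes them from p-coumaroyl-CoA and malonyl-CoA, the substrates that chalcone synthase (CHS) uses for flavonoids. The precursor is supplied by phenylalanine ammonia-lyase (PAL), cinnamate 4-hydroxylase (C4H) and 4-coumarate CoA ligase (4CL). In grapevine, MYB14 and MYB15 activate STS promoters, and both genes respond to wounding, ultraviolet light and pathogens in leaves.

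Counted reads ranged from 21914215 to 24209752 in 5 of the libraries and numbered 13123072 in leaf replicate 3. The paper lists a number of read pairs for leaf replicate 3 within the range of the others. It also lists for it the lowest shares of reads mapped and properly paired on the reference genome used. That library also stood apart in composition, as its 100 most abundant genes took 36.4% of its reads against 15.1% to 18.8% elsewhere, and in its trimmed mean of M-values (TMM) scaling factor, 0.66 against 0.96 to 1.19. Across genes, Pearson's r of log2 read share was 0.902 and 0.893 between leaf replicate 3 and the other leaf libraries, and 0.994 to 0.996 within EC. The tests of the pair, their ratio and the list counts are therefore given with and without it, whereas the neighbouring genes and the likeness of patterns include it. No identifier of the table was paired with a gene name in the RefSeq table used here, so the tissue labels were not checked against marker genes. In whole tissue, a lower level may reflect fewer expressing cells or less RNA per cell, and these cannot be told apart. Nothing states that the samples of a tissue were separate vines or cultures, so p-values measure the spread between these samples only.

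MYB14 transcripts were lower in EC than in leaf in every library. The leaf replicates held 290, 253 and 167 reads on the gene, or 12.3, 11.5 and 12.7 reads per 1000000 counted reads (RPM). The EC replicates held 79, 70 and 97 reads, or 3.50, 3.14 and 4.01 RPM. All leaf libraries lay above all EC libraries, and the counting intervals (95% Wilson) of the highest EC library, 3.28 to 4.89 RPM, and the lowest leaf library, 10.2 to 13.1 RPM, did not touch. These intervals cover counting error only, since reads copied in amplification do not stand for separate molecules. The leaf mean was 12.2 ± 0.595 RPM and the EC mean 3.55 ± 0.435 RPM (SD, n = 3 each), a ratio of 3.43.

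In the quasi-likelihood test of edgeR on all genes and transposable element families together, scaled by TMM factors, MYB14 had a log2 fold change (EC over leaf) of −2.28 with a standard error of 0.27, and an adjusted p of 0.00156 (Benjamini-Hochberg). The 95% interval of the log2 fold change ran from −2.94 to −1.61, and the point value is a 4.85-fold higher level in leaf. This is larger than the RPM ratio, because TMM scaling raised leaf replicate 3 and lowered the EC libraries. On that scale the leaf replicates stood at 12.8, 11.9 and 19.4 counts per 1000000 of scaled library size (CPM) and the EC replicates at 3.05, 2.65 and 3.37 CPM. Without leaf replicate 3 the log2 fold change was −2.01 (edgeR, adjusted p = 3.73e-05). Genes were called at an adjusted p under 0.05 with at least a 2-fold change, as the study's methods define differential expression. By this definition MYB14 was called lower in EC and was the one called of the 2 members. Of the 21336 genes tested, 42.5% were called, 25.3% lower in EC and 17.3% higher, so a call in this direction was common, and 18.5% of genes had a more negative log2 fold change than MYB14.

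MYB15 was close to its leaf level in 1 EC library and well below it in another. The leaf replicates held 185, 162 and 62 reads, or 7.82, 7.39 and 4.72 RPM. The EC replicates held 36, 80 and 172 reads, or 1.59, 3.59 and 7.10 RPM. EC replicate 3 lay above leaf replicate 3 and within the counting intervals of the other leaf libraries, so the tissues overlapped in RPM. The leaf mean was 6.65 ± 1.68 RPM and the EC mean 4.10 ± 2.79 RPM (SD, n = 3 each). After TMM scaling the leaf libraries stood at 8.18, 7.64 and 7.20 CPM and the EC libraries at 1.39, 3.03 and 5.97 CPM. On this scale the tissues no longer overlapped, a separation in this direction that 34.4% of tested genes had, with 35.3% separated the other way. In RPM, where MYB14 alone of the pair was separated, these shares were 24.6% and 48.3%.

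**Figure D1:**
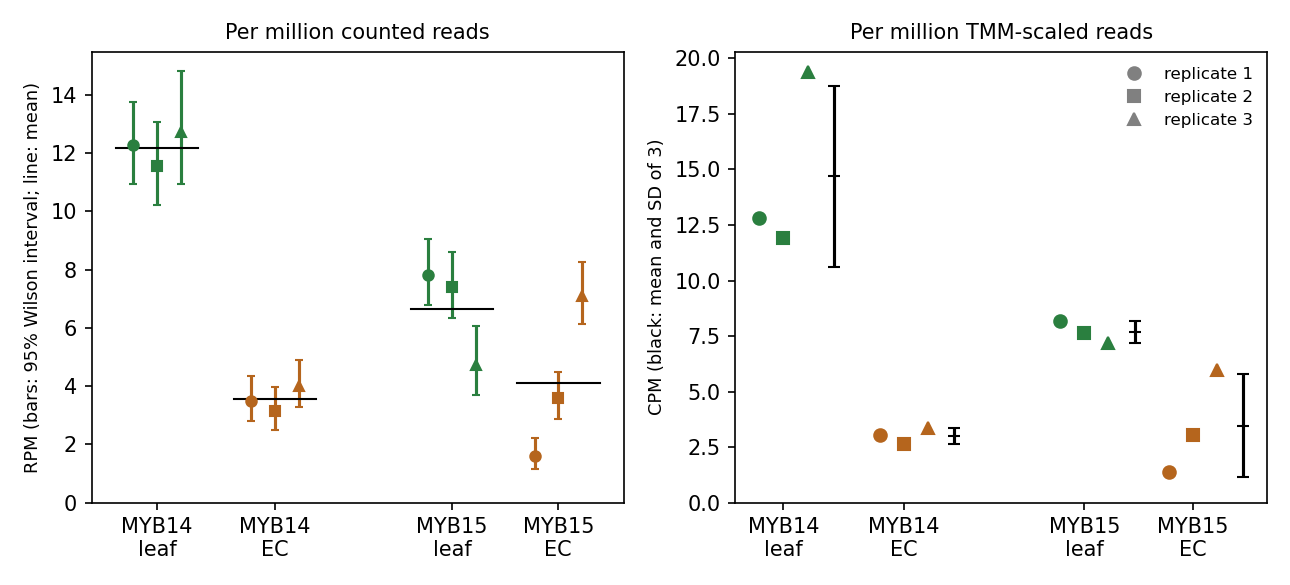
Level of MYB14 and MYB15 in each leaf (green) and EC (brown) library, on the left as RPM with 95% Wilson counting intervals and a line at the mean, and on the right as CPM of TMM-scaled library size with the mean and SD of 3 libraries in black. The MYB14 groups are apart on both scales, whereas the EC libraries of MYB15 run from 1.59 to 7.10 RPM and reach the leaf libraries on the left.

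The MYB15 difference did not pass the test. Its log2 fold change was −1.15 with a standard error of 0.53 and an adjusted p of 0.118 (edgeR quasi-likelihood test, Benjamini-Hochberg). The 95% interval, −2.46 to 0.17, includes no change as well as a fall as large as the one estimated for MYB14. DESeq2 gave −1.19 with an adjusted p of 0.0667 and limma-voom −1.38 with an adjusted p of 0.0613, neither of which passed. The call turned on 1 library. Without EC replicate 3 the log2 fold change was −1.77 and the adjusted p 0.0394 (edgeR), which is a call, whereas without EC replicate 1 it was −0.74 (adjusted p = 0.182, edgeR). Leaving out leaf replicate 3 changed little (−1.17, adjusted p = 0.0799, edgeR).

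**Figure D2:**
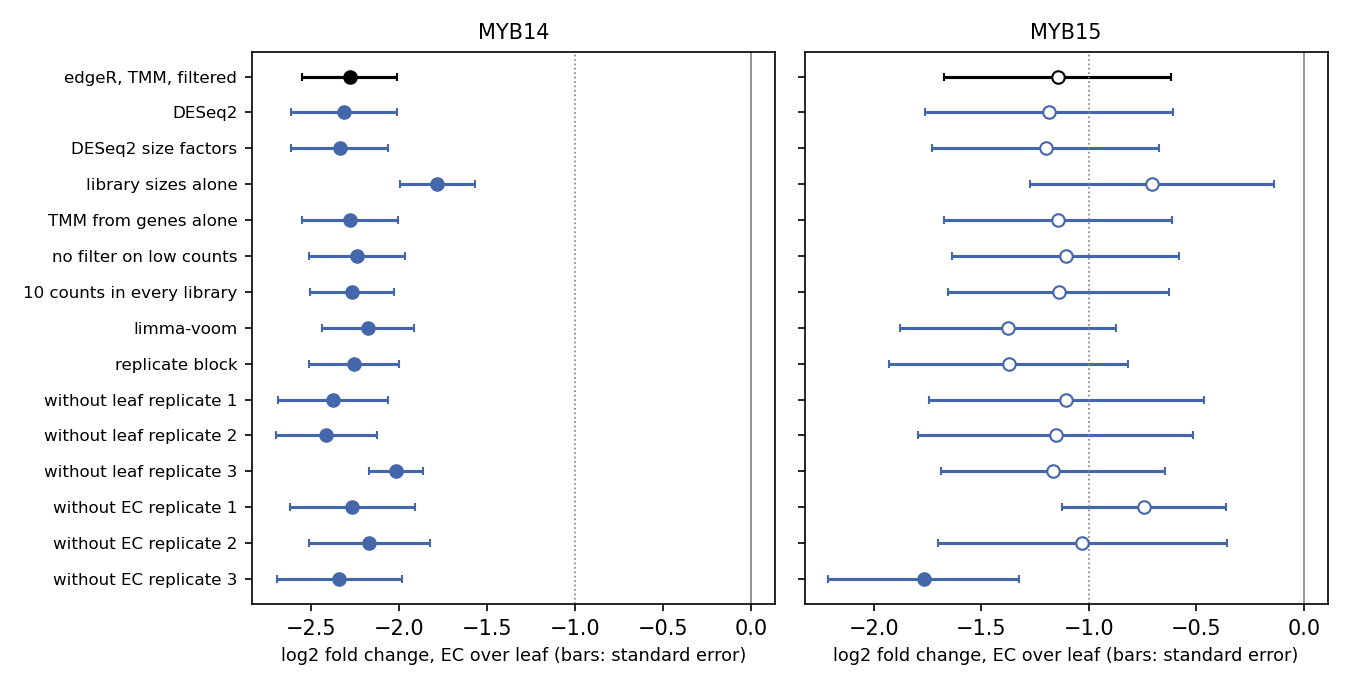
Log2 fold change of MYB14 and MYB15, EC over leaf, with its standard error, in the edgeR test (top, black) and under each alternative (blue). Filled points had an adjusted p under 0.05 and at least a 2-fold change, and the dotted line marks 2-fold. All 15 MYB14 points are filled, and for MYB15 only the one without EC replicate 3 is.

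The spread of MYB15 among the EC libraries was unusual for this table. Its highest EC library was 4.45 times its lowest in RPM, and the counting intervals of the EC replicates, 1.15 to 2.21, 2.89 to 4.47 and 6.12 to 8.25 RPM, did not overlap one another. The spread was thus larger than counting error. Over all tested genes the median ratio between the highest and the lowest EC library was 1.20, and 3.02% of genes had a ratio at least as large as MYB15 (counts with 0.5 added). Among the 3692 tested genes with a mean of 50 to 200 EC reads the median was 1.30, and 81 genes (2.19%) were as widely spread. MYB14, with a similar number of EC reads, had a ratio of 1.28, and 38.5% of tested genes were at least as widely spread. Scaling by TMM factors left these EC ratios at 4.30 for MYB15 and 1.27 for MYB14, with 3.07% and 38.9% of genes as widely spread. In leaf the order of the pair depended on the scale. In RPM the leaf libraries differed 1.10-fold in MYB14 and 1.66-fold in MYB15, and 96.5% and 66.4% of genes differed at least as much. With TMM factors they differed 1.63-fold in MYB14 and 1.14-fold in MYB15, against 60.1% and 93.0% of genes. The dispersion that edgeR estimated for MYB15 corresponds to a biological coefficient of variation of 0.476, and that for MYB14 to 0.29, against 0.419 in common over all features. Of tested genes, 78.4% had a lower dispersion than MYB15 and 47.3% a lower one than MYB14.

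**Figure D3:**
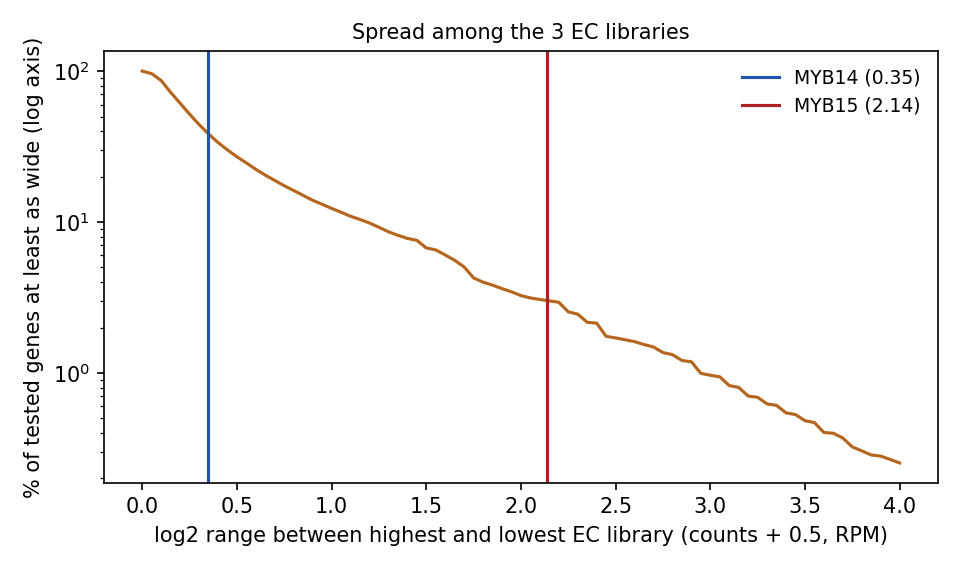
Share of tested genes (%, log axis) whose EC libraries span at least the log2 range on the x axis, from the highest to the lowest of 3 libraries in RPM with 0.5 added to each count. MYB14 lies at 0.35, where 38.5% of genes are as wide, and MYB15 at 2.14, where 3.02% are.

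Whether the pair changed by unequal amounts was tested on the ratio of their counts within each library, which needs no scaling between libraries. The ratio is not per unit of transcript length, so its change is read and not its size. MYB14 had 1.57, 1.56 and 2.69 reads per MYB15 read in the leaf replicates and 2.19, 0.875 and 0.564 in the EC replicates. The tissues overlapped, as EC replicate 1 lay above leaf replicates 1 and 2. The mean log2 ratio was 0.91 ± 0.45 in leaf and 0.04 ± 1.00 in EC (SD, n = 3 each), a difference (EC minus leaf) of −0.87. The exact permutation test of this difference (two-sided) gave p = 0.3. With 3 libraries per tissue its p cannot go below 0.1, so it could not have passed at 0.05, and whether the pair changed by unequal amounts is not settled by it. Without leaf replicate 3 the difference was −0.61 (exact permutation p = 0.6).

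The scaling moved both genes together with the typical gene. The median gene had a log2 fold change of −0.05 under TMM scaling, and of 0.40 when only library sizes were used. Under the latter MYB14 stood at −1.78 (adjusted p = 0.0015, edgeR) and MYB15 at −0.70 (adjusted p = 0.323, edgeR). Relative to the median gene, MYB14 lay at −2.23 with TMM factors and −2.19 with library sizes, and MYB15 at −1.10 and −1.11. Of all called genes, 59.4% were lower in EC under TMM scaling and 43.4% when only library sizes were used.

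Other steps of the pathway were read from lists of loci drawn up from general knowledge of grapevine locus naming. No table used here annotates these loci, so single loci are given by identifier only and the lists are held as such. The table holds 81 list loci, and of the 47 tested 37 were called lower in EC and 1 higher, against 25.3% and 17.3% of all tested genes. Loci that passed the low-count filter through leaf reads alone had to differ, so these counts describe the loci tested, support no direction and do not stand for the lists as wholes. Without leaf replicate 3, 6608 of 22322 tested genes were called lower in EC and 4792 higher. With 10 counts required in every library, 3266 of 16178 were called lower and 2243 higher.

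The loci listed as targets were low in EC. The 45 loci in the ranges held to be the STS clusters on chromosomes 10 and 16 together took 139, 136 and 81.0 RPM in the leaf replicates and 7.58, 9.20 and 9.13 RPM in the EC replicates, with no overlap. Sums are given because near-identical copies share reads, and the split between copies is uncertain. Of these loci 4 had no read, 23 were tested, 21 were called lower in EC and 0 higher (edgeR). Most of these passed the filter through leaf reads, and where 10 counts were required in every library 0 chromosome 10 loci and 2 chromosome 16 loci could be tested, both of the latter called lower. The number called higher was also 0 at an unadjusted p under 0.05, with DESeq2 and with limma-voom. As most of these loci were tested on their leaf reads, these counts too support no direction. The highest EC library of the STS sum was 1.21 times the lowest in RPM, and over the same libraries MYB14 spanned 1.28-fold and MYB15 4.45-fold. The chromosome 16 loci, which held nearly all EC reads of the sum, spanned 1.19-fold. The chromosome 10 loci spanned 5.07-fold, on 1, 5 and 4 reads. A sum over many loci and a single gene are unlike measures of spread.

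The clusters parted in leaf replicate 3. The chromosome 16 loci stood at 118, 118 and 21.6 RPM in the leaf replicates and the chromosome 10 loci at 21.1, 17.8 and 59.4 RPM. Relative to the mean of leaf replicates 1 and 2, leaf replicate 3 was thus at 0.184 for chromosome 16 and 3.05 for chromosome 10, while it was at 1.07 for MYB14 and 0.621 for MYB15. With TMM factors these ratios were 0.27 for chromosome 16, 4.47 for chromosome 10, 1.57 for MYB14 and 0.91 for MYB15, so that which of the pair was nearer its level in the other leaf libraries depended on the scale. The EC libraries held 170, 200 and 217 reads on the chromosome 16 loci and 1, 5 and 4 on those of chromosome 10. Median log2 fold changes were −4.28 over 17 tested chromosome 16 loci and −8.15 over 6 tested chromosome 10 loci, or −7.30 when the 2 loci with no EC read were set to the bound that 3 reads per EC library allow. Called loci numbered 15 and 6. Without leaf replicate 3 they numbered 29 and 6, and the medians were −4.74 over 29 loci and −7.20 over 6. On chromosome 16 single loci ranged from −5.88 (VIT_216s0100g00860) to −1.20 (VIT_216s0100g01100, not called). VIT_216s0100g01170 had the most reads, 382, 279 and 46 in leaf and 53, 58 and 68 in EC. The chromosome 10 locus with the most reads, VIT_210s0042g00920, held 142, 132 and 226 in leaf and 0 in each EC library.

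**Figure D4:**
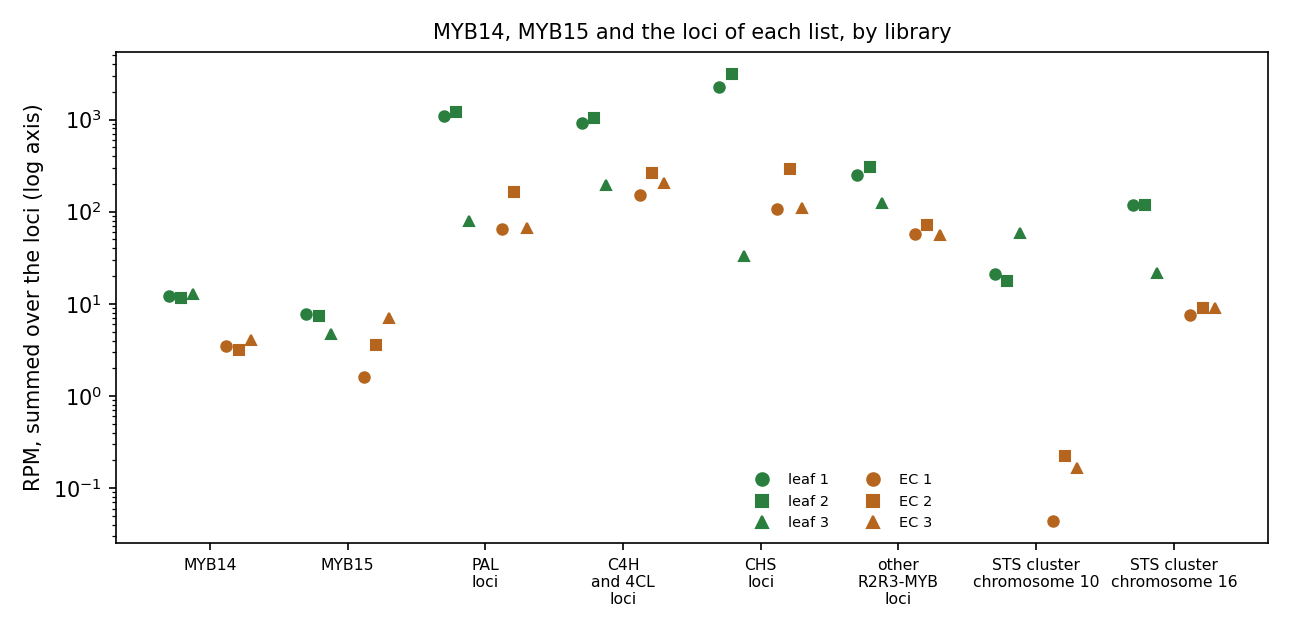
RPM of MYB14, of MYB15 and summed over the loci of each list (log axis), with 1 point per leaf (green) and EC (brown) library. The EC libraries lie below all leaf libraries for MYB14, both STS clusters and the other R2R3-MYB loci, while leaf replicate 3 (green triangle) falls into or below the EC range for the CHS, PAL, and C4H and 4CL loci (for the last in RPM but not with TMM factors).

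The summed levels of the precursor lists were lower in EC than in leaf replicates 1 and 2, with 1 tested locus going the other way. PAL loci, the entry step, summed to 1082, 1219 and 78.5 RPM in leaf and 64.2, 163 and 65.9 RPM in EC, and leaf replicate 3 lay below EC replicate 2. Of 12 PAL loci 6 were tested and 5 called lower in EC, with a median log2 fold change of −4.85, or −4.19 with the 1 locus at 0 reads throughout EC set to its bound. Without leaf replicate 3, 7 were tested and 7 called lower, with a median of −4.92. The PAL locus with the most reads, VIT_206s0004g02620, was not called, with 13195, 15135 and 100 reads in leaf and 1021, 2780 and 1101 in EC (adjusted p = 0.124, edgeR). The lowest by log2 fold change, −7.22, was VIT_216s0039g01100, with 59, 57 and 23 reads in leaf and 0, 0 and 1 in EC. C4H and 4CL loci summed to 919, 1037 and 196 RPM in leaf and 150, 261 and 203 RPM in EC, so that leaf replicate 3 lay within the EC range in RPM. With TMM factors it was at 298 CPM and above the EC libraries, which were at 131, 220 and 170 CPM. Of 6 tested, 3 were called lower and 0 higher, with a median of −2.08. Without leaf replicate 3 the numbers were 5 and 1 and the median −3.06 over 7 loci, and the number called lower was 1 without EC replicate 1 and 1 without EC replicate 3. The locus that went the other way, VIT_216s0050g00390, held 623, 328 and 574 reads in leaf and 1521, 1851 and 2730 in EC. In RPM its highest leaf library (43.7) lay below its lowest EC library (67.4), whereas the tissues overlapped with TMM factors. Its log2 fold change was 1.03 (adjusted p = 0.167, edgeR), and it was called higher without leaf replicate 3 (1.81, adjusted p = 0.00194, edgeR) and with library sizes alone (1.63, adjusted p = 0.0223, edgeR). The lowest, VIT_211s0052g01090, stood at 165, 198 and 23.9 RPM in leaf and 7.04, 15.2 and 9.29 RPM in EC (log2 fold change −3.95, adjusted p = 0.0072, edgeR). VIT_206s0004g08150, with the most reads of the list, was at −2.68 (adjusted p = 0.0166, edgeR).

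CHS, the enzyme that competes with STS for substrate, went the same way in leaf replicates 1 and 2 against EC but not in leaf replicate 3. The 2 CHS loci analysed summed to 2268, 3129 and 33.3 RPM in leaf and 108, 290 and 110 RPM in EC. Of these, 0 were called with all libraries (edgeR), 1 had an unadjusted p under 0.05 with at least a 2-fold change, and limma-voom called 0 and DESeq2 called 2. Without leaf replicate 3, 2 were called lower (edgeR). In RPM, leaf replicate 3 was at 0.0123 of the mean of the other leaf libraries for CHS and 0.0682 for PAL, and with TMM factors at 0.0181 and 0.10. MYB14 was at 12.7 RPM and 19.4 CPM in that library, its highest leaf value on both scales. Within EC, PAL and CHS were highest in replicate 2, and MYB15 in replicate 3.

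Other R2R3-MYB loci, whose roles no table used here gives, numbered 15 in the table, of which 10 were tested. Of these 8 were called lower in EC and 1 higher, with a median log2 fold change of −3.58 and a range of −9.17 to 3.26. MYB14 and MYB15 lay inside this range. Without leaf replicate 3, 10 were tested, 8 called lower and 1 higher, with a median of −3.68. The one called higher, VIT_211s0016g01310, rose from 11, 13 and 0 reads in leaf to 121, 92 and 110 in EC (log2 fold change 3.26, adjusted p = 0.0129, edgeR), and with 10 counts required in every library it was not tested. It was not called when any 1 of the EC libraries was left out. The lowest, VIT_211s0016g01300, fell from 755, 789 and 25 reads to 2, 0 and 1 (log2 fold change −9.17, adjusted p = 0.00384, edgeR). These adjoining identifiers were thus called in opposite directions. VIT_215s0046g00170 had the most reads of the list, 1940, 2534 and 56 in leaf and 151, 323 and 123 in EC (log2 fold change −3.25, adjusted p = 0.0461, edgeR).

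Next to MYB15 by identifier lies VIT_205s0049g01010, with 9, 13 and 2 reads in leaf and 1, 0 and 0 in EC. It did not pass the filter on low counts and was not tested. Of the 3 nearest identifiers on each side of MYB15 4 were tested, and VIT_205s0049g01050 was called lower (log2 fold change −3.62, adjusted p = 0.00375, edgeR) and VIT_205s0049g01070 higher (3.93, adjusted p = 0.0016, edgeR). Around MYB14 all 6 were tested. VIT_207s0005g03370 was called lower (−4.83, adjusted p = 0.0143, edgeR) and VIT_207s0005g03320 higher (3.12, adjusted p = 0.00717, edgeR). The directly adjoining VIT_207s0005g03330 and VIT_207s0005g03350 were not called, at 0.33 and −0.76. With TMM factors VIT_207s0005g03330 was nonetheless higher in all EC libraries than in any leaf library, as were 35.3% of tested genes. Of all tested genes 42.5% were called, so the calls around MYB14 and MYB15 do not set their surroundings apart.

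**Figure D5:**
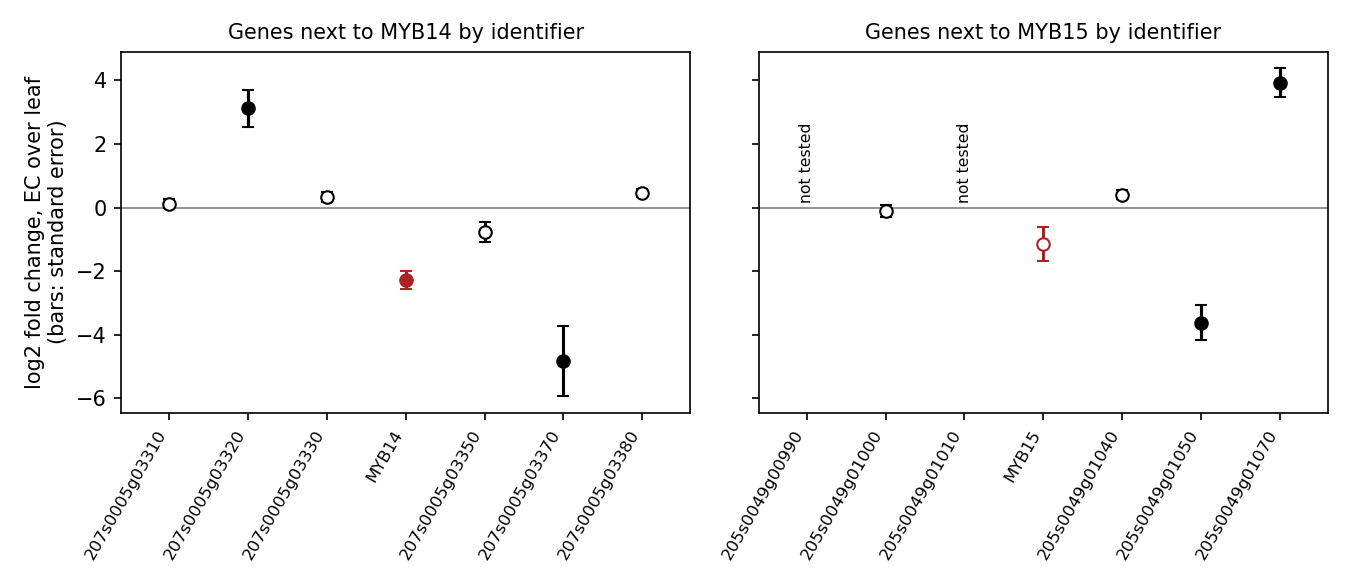
Log2 fold change, EC over leaf, with its standard error for MYB14 and MYB15 (red) and the 3 nearest identifiers on each side (black, in identifier order and not to scale). Filled points were called, 1 lower and 1 higher beside each of MYB14 and MYB15, and 2 identifiers beside MYB15 had too few reads to be tested. Of all tested genes 42.5% were called.

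Likeness of pattern was measured by Pearson's r over the 6 libraries on log2 CPM, as a description without a test, since the libraries share tissues. Of 21335 other tested genes, 577 had an r above 0.99 with MYB14, a measure that does not depend on the size of a change. The nearest were VIT_213s0064g00790 (r = 0.9995, log2 fold change −7.47), VIT_206s0061g00080 (0.9994, −2.61), VIT_202s0012g01250 (0.9993, −1.74), VIT_202s0109g00080 (0.9993, −12.1) and VIT_205s0049g00890 (0.9993, −1.11). MYB14 itself stood at −2.28. In EC, VIT_213s0064g00790 held only 1, 0 and 2 reads and VIT_202s0109g00080 5, 1 and 6. Their likeness to MYB14 among the EC libraries thus rests on very few reads. VIT_206s0061g00080 was also near in level, with 303, 239 and 169 reads in leaf and 64, 55 and 77 in EC. The r between MYB14 and MYB15 was 0.75, which put MYB15 at rank 6796 by likeness to MYB14 and MYB14 at rank 2110 by likeness to MYB15.

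By the same measure MYB15 had 0 genes above 0.99, 13 above 0.95 and 61 above 0.9, against 577, 2970 and 4591 for MYB14. These counts were not made for other genes, so no share is given. The nearest were VIT_207s0031g01130 (r = 0.982), VIT_217s0000g00320 (0.98), VIT_203s0091g00690 (0.977), VIT_200s0181g00080 (0.973) and VIT_210s0003g03750 (0.968). VIT_217s0000g00320 differed little between the tissues (log2 fold change −0.19). Of the 5, VIT_203s0091g00690 held 317, 191 and 166 reads in leaf and 12, 56 and 211 in EC. VIT_200s0181g00080 held 823, 515 and 389 in leaf and 64, 227 and 521 in EC. As with MYB15, EC replicate 1 was lowest and EC replicate 3 highest in both. Both were picked by likeness to MYB15 over these libraries, so this order is no separate result. Neither passed the test (adjusted p = 0.113 and 0.073, edgeR), and VIT_210s0003g03750 was the one of the 5 with an adjusted p under 0.05 (log2 fold change −1.52, adjusted p = 0.0202, edgeR).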

How the data were processed

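Whole-number read counts were deposited without normalisation by the authors, who trimmed reads to a minimum length of 36, removed tRNA and rRNA reads, aligned what remained with HISAT2, multiple positions allowed, to the 12X assembly of PN40024, and counted genes (V2.1 annotation) and TE families with TEtranscripts. The paper states that counts of genes resembling chloroplast genes, the most abundant in leaf, were removed before its own normalisation. Whether the counts used here still included them was not examined. HISAT2 and DESeq2 are also named in the submitters' processing notes. Whether counting used strand is not given in the sources used here, so antisense reads may be included. The table has 6 columns of counts and 0 others. No file identifier matched the RefSeq table, whose symbols hold MYB14 once, on chromosome 7.

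RPM are counts per 1000000 counted reads, for which 3 reads correspond to 0.124 to 0.229 RPM. Genes and TE families (21550 features) were tested in edgeR 4.0.16 (R 4.3.3) with TMM factors, filterByExpr (minimum count 10, minimum total 15) and robust glmQLFit and glmQLFTest, with Benjamini-Hochberg adjustment over all features. Standard errors were derived from each log2 fold change and its F statistic. The code was tested on simulated data. Log2 CPM for likeness had a prior count of 2. Permutation tests and Wilson intervals used scipy 1.17.1. Alternatives were DESeq2 1.42.0, limma-voom (limma 3.58.1), other scalings and filters, a replicate block and each library left out. The genes named were both members, the 3 nearest identifiers on each side, the 5 nearest in pattern and the extremes of each list. Members and lists were chosen with earlier results of these data known. The within-EC spread was examined after its values were seen.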

Additional observations from a re-analysis of the deposited data

How the results depend on the processing

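Both genes kept their direction, lower in EC, under all 14 alternatives. MYB14 was called under each, with log2 fold changes of −2.41 to −1.78 and adjusted p-values of 1.48e-13 to 0.0138 (edgeR, DESeq2 or limma). With single libraries left out it ranged from −2.41 to −2.01. MYB15 was not called under 13, with adjusted p-values of 0.0613 to 0.323 (edgeR, DESeq2 or limma), and was called without EC replicate 3, at −1.77, and the cause was not tested. With single libraries left out it ranged from −1.77 to −0.74. The difference in log2 ratio of MYB14 to MYB15 was below 0 under all 9 alternatives, between −1.42 and −0.44, with exact permutation p-values of 0.2 to 0.6. The genes called numbered 9070, 10893 with DESeq2, 5509 where 10 counts were required in every library, and 7015 to 11400 with 1 library left out. Called list loci numbered 38, 61 with DESeq2, which also tested loci with lower counts, 12 where 10 counts were required in every library, which left fewer to test, and 34 to 59 with 1 library left out, the highest without leaf replicate 3.

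Whether the replicate numbers pair the samples could not be settled. The correlation across features of deviations from the tissue means was −0.01, 0.10 and 0.10 for same-numbered libraries. Leaf replicates 2 and 3 were most like the EC replicate of the same number (0.097 and 0.096), and leaf replicate 1 was most like EC replicate 2 (0.102). Leaf replicates 1 and 2 had nearly the same correlations with each EC library, so this check cannot decide the pairing. With the replicate block MYB14 stood at −2.25 (adjusted p = 0.00933, edgeR), MYB15 at −1.37 (adjusted p = 0.12, edgeR) and the log2 ratio at −0.87, and 7822 genes and 32 list loci were called. The block changed no call of the pair. Counting error limits MYB15 in EC replicate 1, which holds 36 reads.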
